A study of Mus musculus with 6 samples.

Results

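Transcripts of the T cell receptor constant genes Trac, Trbc1, Trbc2, Tcrg-C1, Tcrg-C2 and Tcrg-C4, of the CD3 genes Cd3d, Cd3e and Cd3g, and of the kinase gene Lck were followed in sorted mouse short-term hematopoietic stem cells, or ST-HSC. These 10 genes were found by symbol, and all 10 were present among the 53677 symbols of the expression table. RNA was sequenced in 6 libraries. Of these, 3 were of wild-type (WT) animals and 3 of animals carrying dnTCF4, a dominant-negative form of TCF4. All mice were on the C57BL/6J background, and the genotypes were labelled dnTCF4-/- for WT and dnTCF4+/+ for dnTCF4. No allele or agent beside dnTCF4 was named. The sources used here name neither the driver of dnTCF4 nor the age of the animals. Cells came from ground long bones, pelvis and spine and were sorted as Lin-, ckit+, CD48+ and CD150-. The labels number the libraries 1 to 3 in each genotype, and the series description gives 3 mice of each.

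The T cell receptor is a pair of chains, alpha with beta or gamma with delta, each made of a variable part assembled from V, D and J segments and a constant part. The chains reach the cell surface only with the CD3 proteins, whose tails are phosphorylated by Lck when the receptor is engaged. Constant genes can also be transcribed before any V segment is joined, from promoters near the D and J segments, so their RNA by itself does not show a finished receptor.

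The libraries held 57384595 to 110895167 counted reads, recovered from the steps of the deposited values. Kit, the stem cell factor receptor of the sort, was read at 35.5 to 97.1 RPKM (reads scaled by gene length and by the counted reads of the library). Cd48 was read at 813 to 1415 RPKM and Slamf1, which encodes CD150, at 0.744 to 1.18 RPKM, matching the direction of the gate. Immunoglobulin genes took 44.1%, 26.7% and 25.5% of the summed RPKM in WT replicates 1, 2 and 3, against 6.33%, 3.27% and 6.00% in the dnTCF4 replicates. Their share of the counted reads was lower, at 14.8%, 7.32% and 7.22% in WT and 1.55%, 0.732% and 1.53% in dnTCF4. The Y-linked gene Ddx3y was read at 30.5 RPKM in WT replicate 1 and at 24.8 RPKM in dnTCF4 replicate 1. It was listed at 0 in the other 4 libraries, so replicate 1 of both genotypes stood apart from replicates 2 and 3.

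The beta chain has 2 constant genes, Trbc1 (chr6:41538218-41539881, plus strand) and Trbc2 (chr6:41546730-41548352, plus strand; all gene positions are GRCm38, GENCODE M21). Each follows its own D segment and cluster of J segments. Their sequences are shown because they decide how far reads can be assigned to one gene or the other. In their first constant exon, of 375 bases, they differ at 1 base (99.7% identity), and the longest identical run is 259 bases. Over the 146 coding bases after that exon they differ at 22 (84.9% identity). Positions 241 to 521 of the coding constant part, which end at the stop codon, are given 5′ to 3′ with capitals at the bases that differ between the 2 genes.
Trbc1: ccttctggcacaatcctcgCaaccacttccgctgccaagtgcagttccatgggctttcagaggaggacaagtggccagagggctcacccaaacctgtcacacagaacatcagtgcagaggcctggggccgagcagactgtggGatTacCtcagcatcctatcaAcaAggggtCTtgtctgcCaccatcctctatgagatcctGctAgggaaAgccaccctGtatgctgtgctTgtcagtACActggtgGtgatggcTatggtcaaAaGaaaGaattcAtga
Trbc2: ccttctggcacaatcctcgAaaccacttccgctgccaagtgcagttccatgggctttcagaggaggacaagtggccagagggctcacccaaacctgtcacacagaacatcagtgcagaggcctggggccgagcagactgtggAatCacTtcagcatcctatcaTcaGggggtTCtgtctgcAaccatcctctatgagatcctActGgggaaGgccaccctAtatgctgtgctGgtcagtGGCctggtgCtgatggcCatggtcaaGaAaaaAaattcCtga
All but the first of the capitals lie in the later exons, so most reads of the first exon could come from either gene. The sources used here do not give how the authors treated reads that fit both, and the split between Trbc1 and Trbc2 is therefore uncertain.

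Per-library values are given in the order of replicates 1, 2 and 3. Trbc1 stood at 24.1, 7.48 and 4.65 RPKM in the WT libraries and at 16.96, 3.32 and 2.84 RPKM in the dnTCF4 libraries. Trbc2 was read at 12.1, 3.16 and 4.93 RPKM in the WT libraries and at 19.2, 2.97 and 2.80 RPKM in dnTCF4. For both genes replicate 1 was the highest library of its genotype, and the ranges of the 2 genotypes overlapped. Trbc1 exceeded Trbc2 by 1.99 and 2.37 times in WT replicates 1 and 2, and the ratio was 0.944 in WT replicate 3. In the dnTCF4 libraries this ratio was 0.884, 1.12 and 1.02.

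Trac (chr14:54220521-54224206, plus strand) is the single constant gene of the alpha chain, the partner of beta. It was read at 2.27, 0.225 and 0.742 RPKM in the WT libraries and at 2.10, 0.617 and 0.615 RPKM in dnTCF4, again highest in replicate 1. Its lowest value rested on 13 reads, in WT replicate 2. The beta constants summed to 15.9, 47.3 and 12.9 times the level of Trac in WT and to 17.2, 10.2 and 9.16 times in dnTCF4. Beta constant RNA was thus in excess of alpha constant RNA in all 6 libraries.

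The gamma chain constants sit on chromosome 13: Tcrg-C1 at chr13:19214103-19217024 (plus strand), Tcrg-C2 at chr13:19304649-19307551 (minus strand) and Tcrg-C4 at chr13:19344558-19352756 (plus strand). The first 120 bases of their first constant exons are given 5′ to 3′, with capitals at positions where the genes are not all alike, because they show which gamma genes can be told apart.
Tcrg-C1: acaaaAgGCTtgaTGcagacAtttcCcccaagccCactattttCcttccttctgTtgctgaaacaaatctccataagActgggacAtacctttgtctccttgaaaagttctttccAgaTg
Tcrg-C2: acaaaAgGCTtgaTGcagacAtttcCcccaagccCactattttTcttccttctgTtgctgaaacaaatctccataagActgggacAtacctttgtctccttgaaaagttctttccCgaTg
Tcrg-C4: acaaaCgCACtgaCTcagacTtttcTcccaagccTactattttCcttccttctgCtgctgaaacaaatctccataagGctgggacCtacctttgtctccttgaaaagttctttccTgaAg
Across the 330 bases of the first exon, Tcrg-C1 and Tcrg-C2 differ at 9 bases (97.3% identity), and their longest identical run is 71 bases. Tcrg-C4 differs from Tcrg-C1 at 59 bases (82.1% identity) and from Tcrg-C2 at 61 (81.5% identity). Reads of Tcrg-C4 are therefore the more readily separated, and the split between Tcrg-C1 and Tcrg-C2 is less certain.

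Tcrg-C1 had the highest gamma constant level in every library, at 22.6, 7.83 and 5.23 RPKM in WT and 17.4, 7.01 and 6.00 RPKM in dnTCF4. Tcrg-C4 was read at 11.6, 2.55 and 2.26 RPKM in the WT libraries and at 6.87, 1.04 and 1.08 RPKM in dnTCF4. Tcrg-C2 was read at 5.10, 1.59 and 1.08 RPKM in the WT libraries and at 1.44, 0.168 and 0.515 RPKM in dnTCF4. Replicate 1 was highest in each genotype for all 3 genes, and the genotypes overlapped for each. For Tcrg-C1 all 3 dnTCF4 libraries lay above WT replicate 3, and for the other two only dnTCF4 replicate 1 lay above the lowest WT library. Gamma constants made up 50.5%, 52.4% and 45.4% of the summed RPKM of the 6 receptor constants in WT, and 40.2%, 54.3% and 54.9% in dnTCF4. Of the constant genes outside the 10, Trdc, the delta chain constant, was read at 0.485, 0.151 and 0.115 RPKM in the WT libraries and at 0.164, 0.0233 and 0 RPKM in dnTCF4. Tcrg-C3 was read at no more than 0.485 RPKM.

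The CD3 genes lie beside each other on chromosome 9, Cd3g at chr9:44969572-44980431 (minus strand), Cd3d at chr9:44981786-44987339 (plus strand) and Cd3e at chr9:44998740-45009627 (minus strand). Their products pair as gamma-epsilon and delta-epsilon dimers around the receptor. Cd3d was read at 0.902, 0.571 and 0.350 RPKM in the WT libraries and at 1.06, 0.522 and 0.557 RPKM in dnTCF4. Cd3g was read at 0.718, 0.272 and 0.370 RPKM in the WT libraries and at 0.922, 0.166 and 0.160 RPKM in dnTCF4. Cd3e was read at 0.502, 0.214 and 0.199 RPKM in the WT libraries and at 0.241, 0.0663 and 0.0854 RPKM in dnTCF4, on 20 to 130 reads. Cd3e overlaps the antisense gene Gm48719, and since the library kit does not mark strand, reads of the pair cannot be told apart. All 3 CD3 genes lay near or below 1 RPKM, were highest in replicate 1 of each genotype, and overlapped between genotypes.

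Lck (chr4:129548344-129573641, minus strand) encodes the Src family kinase that phosphorylates CD3 tails and is bound to CD4 and CD8. It was read at 59.9, 21.04 and 19.7 RPKM in the WT libraries and at 50.4, 16.1 and 15.1 RPKM in dnTCF4. Its mean was 33.5 ± 22.8 RPKM (SD, n = 3) in WT and 27.2 ± 20.1 RPKM (SD, n = 3) in dnTCF4. Lck had the highest level of the 10 genes in each of the 6 libraries. By mean RPKM over the 6 libraries the order after Lck (30.3) was Tcrg-C1 (11.0), Trbc1 (9.88), Trbc2 (7.52), Tcrg-C4 (4.23), Tcrg-C2 (1.65), Trac (1.10), Cd3d (0.660), Cd3g (0.435) and Cd3e (0.218). Each gene's range overlapped that of its neighbour in this order. The plot of levels by library shows the 10 genes together.

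**Figure D1:**
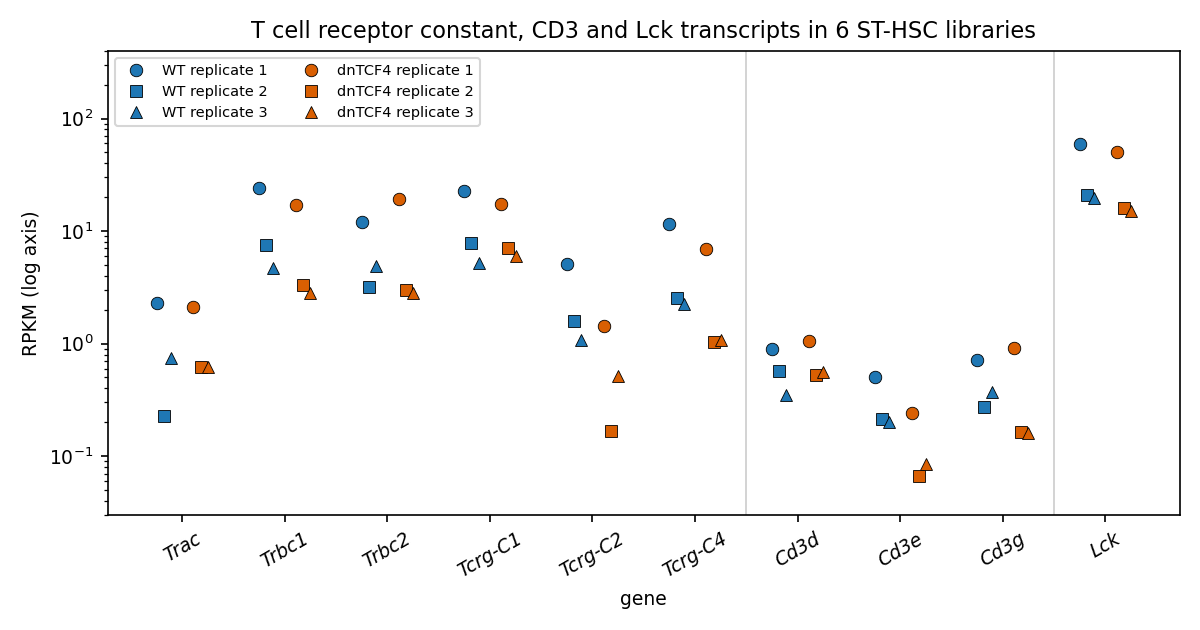
RPKM (log axis) of the 10 genes in each library, circles for replicate 1, squares for replicate 2 and triangles for replicate 3, WT in blue and dnTCF4 in orange. The circle is the highest symbol of its colour for every gene, with Lck at 59.9 and 50.4 RPKM, and the CD3 genes lie lowest, at 0.0663 to 1.06 RPKM.

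The receptor constants were next set against CD3 and Lck, replicate by replicate. The 6 constants summed to 77.6, 22.8 and 18.9 RPKM in the WT libraries and to 63.9, 15.1 and 13.8 RPKM in dnTCF4. The 3 CD3 genes summed to 2.12, 1.06 and 0.919 RPKM in the WT libraries and to 2.22, 0.753 and 0.802 RPKM in dnTCF4. Receptor constant RNA was therefore 36.6, 21.6 and 20.6 times CD3 RNA in WT and 28.8, 20.1 and 17.3 times CD3 RNA in dnTCF4. Lck alone was 28.2, 19.9 and 21.4 times CD3 in WT and 22.7, 21.3 and 18.8 times in dnTCF4.

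The constants divided by the sum of CD3 and Lck gave 1.25, 1.03 and 0.919 in WT and 1.22, 0.900 and 0.870 in dnTCF4. While the sums themselves spanned 13.8 to 77.6 RPKM, the ratio stayed between 0.870 and 1.25, highest in replicate 1 of each genotype. On the log2 scale its mean was 0.08 ± 0.23 (SD, n = 3) in WT and -0.02 ± 0.27 (SD, n = 3) in dnTCF4, a difference of -0.11 against a pooled SD of 0.25. The genotypes thus differed in this ratio by less than the spread between replicates. Lck carried almost all of the denominator, and against CD3 without Lck the difference was -0.23. In recovered reads, the constants had 4151, 1186 and 1059 in WT and 3285, 1417 and 672 in dnTCF4. CD3 had 383, 173 and 180 reads in WT and 373, 195 and 108 in dnTCF4.

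**Figure D2:**
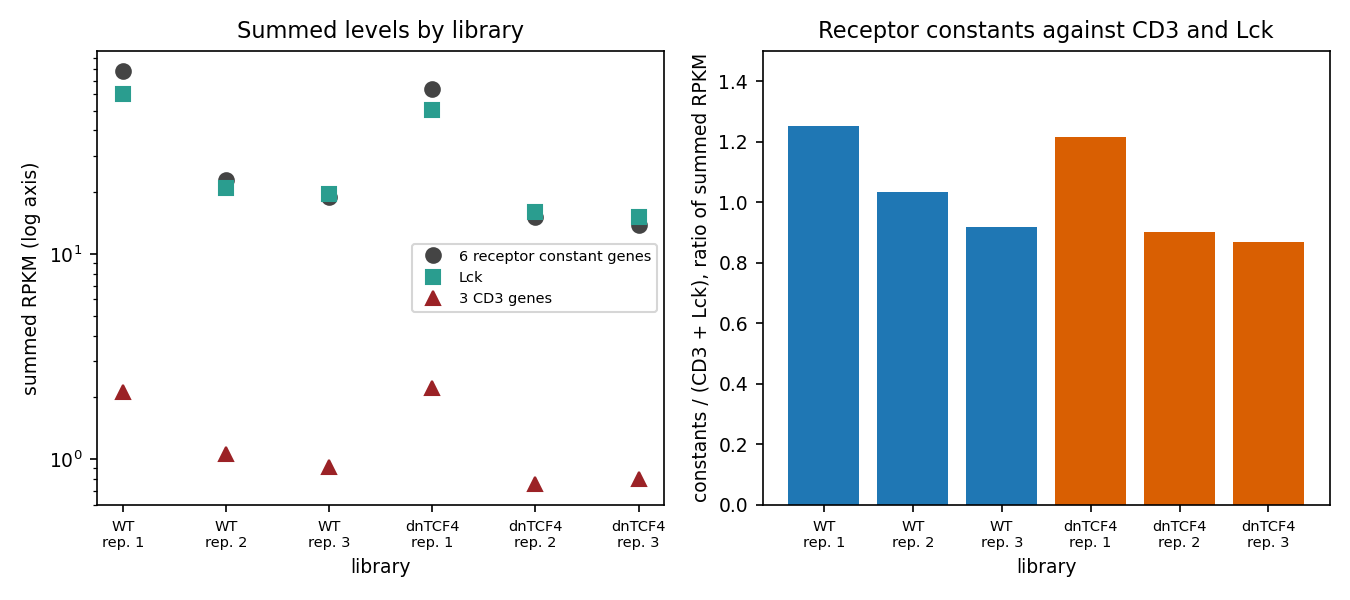
Left, summed RPKM (log axis) of the 6 receptor constants, Lck and the 3 CD3 genes in each library. Right, constants divided by CD3 plus Lck (bars from 0, 1 library each, WT in blue, dnTCF4 in orange); the bars stand at 1.25, 1.03, 0.919, 1.22, 0.900 and 0.870 from left to right.

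The step from replicate 1 to replicates 2 and 3 was shared by receptor, CD3 and kinase genes. Replicate 1 had the highest level of its genotype for 10 of 10 genes in both genotypes. For this comparison, genes were set in classes by their mean over replicates 2 and 3, which replicate 1 does not enter. The class of 1 RPKM or more held Trbc1, Trbc2, Tcrg-C1, Tcrg-C4 and Lck, and all 5 were highest in replicate 1, against 5.14% of the 11468 genes in it. The class of 0.1 to 1 RPKM held Trac, Tcrg-C2 and the CD3 genes, and all 5 were highest in replicate 1, against 7.6% of the 7530 genes in it. Replicate 1 exceeded each of replicates 2 and 3 by more than 2 times in both genotypes for 8 of the 10, the exceptions being Cd3d and Cd3g. These were 5 of 5 in the upper class (0.532% of all genes there) and 3 of 5 in the lower class (1.25% of all genes there). Over the mean of replicates 2 and 3, replicate 1 was higher by 3.72 times in WT and 4.41 times in dnTCF4 for the constants, by 2.15 and 2.85 times for CD3, and by 2.94 and 3.23 times for Lck. In these sorted bulk samples, fewer cells with such RNA and less of it per cell cannot be told apart. Replicate number and the presence of Y-linked RNA fell together here and cannot be told apart either.

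Other gene groups showed where this replicate pattern was and was not seen. In each list the genes that were more than 2 times higher in replicate 1 of both genotypes were counted at every level. Of 28 genes of receptor signalling, 3 showed this step, Cd247, Skap1 and Themis, all below 1 RPKM over replicates 2 and 3. Of the 18 signalling genes at 1 RPKM or more, 0 showed it. These 18 include Lcp2, an adaptor downstream of the receptor, at 43.2 to 80.1 RPKM, and Ptprc, the CD45 phosphatase, at 26.6 to 42.3 RPKM. Zap70, the kinase that binds phosphorylated CD3 tails, was read at 0.290, 0.0487 and 0.168 RPKM in the WT libraries and at 0.0371, 0 and 0.00582 RPKM in dnTCF4. Cd247, the zeta chain of the complex, was read at 1.45, 0.419 and 0.352 RPKM in the WT libraries and at 1.79, 0.662 and 0.657 RPKM in dnTCF4, with replicate 1 at 3.76 times the mean of replicates 2 and 3 in WT and 2.71 times in dnTCF4. Bcl11b, a T lineage commitment factor, did not exceed 0.0796 RPKM, and Cd4 lay between 0.454 and 1.15 RPKM. Of 19 T cell surface genes, 3 showed the step, Il7r, Cd2 and Il2ra. Of 16 T lineage factors, 4 showed it, Tcf7, Hes1, Lef1 and Bcl11b, all below 1 RPKM over replicates 2 and 3. Tcf7, a T lineage factor of the TCF family, was read in replicate 1 at 3.13 times the mean of replicates 2 and 3 in WT and at 3.50 times in dnTCF4. Its levels were 2.79, 0.888 and 0.895 RPKM in WT and 0.894, 0.278 and 0.232 RPKM in dnTCF4. The genotypes overlapped, and dnTCF4 was lower in all 3 same-numbered pairs (7.27% of genes at 0.1 to 1 RPKM were). Lef1, Bcl11b and Foxp3 were also lower in all 3 pairs, and Zbtb7b, Tcf12, Id3 and Hes1 were higher in all 3.

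Dntt, which adds bases at receptor and antibody gene joints, was read at 643, 190 and 168 RPKM in the WT libraries and at 354, 91.1 and 86.6 RPKM in dnTCF4. Its replicate 1 level was 3.59 times the mean of replicates 2 and 3 in WT and 3.99 times in dnTCF4, close to the values of the receptor constants. Rag2, the recombinase partner, was read at 14.6, 6.41 and 6.04 RPKM in the WT libraries and at 12.3, 7.16 and 6.74 RPKM in dnTCF4. Of 16 NK cell genes, 6 were more than 2 times higher in replicate 1 of both genotypes. The NK list of 16 genes, some of which stem cells also express, summed to 1881 to 1969 RPKM in WT and 1867 to 2494 RPKM in dnTCF4. Of 12 B cell genes, 8 showed the step. The B cell list of 12 genes summed to 135 to 230 RPKM in WT and 103 to 157 RPKM in dnTCF4. Of 9 gamma delta T cell genes, Trdc and Blk showed it. That list summed to 2.93 to 4.46 RPKM in WT and 1.26 to 4.39 RPKM in dnTCF4, with Il17a listed at 0 in all 6 libraries. Blk alone gave 2.59, 1.26 and 0.334 RPKM of this in WT and 3.27, 0.491 and 0.504 RPKM in dnTCF4. Trdc, Sox13, Zbtb16, Tcrg-V4 and Tcrg-V6 were lower in dnTCF4 in all 3 same-numbered pairs (7.27% of genes at 0.1 to 1 RPKM were). Blk, Maf, Cd163l1 and Il17a were not. Tcrg-V4 and Tcrg-V6 rested on 0 to 12 reads a library. The part of other cell types in the receptor reads was not tested.

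**Figure D3:**
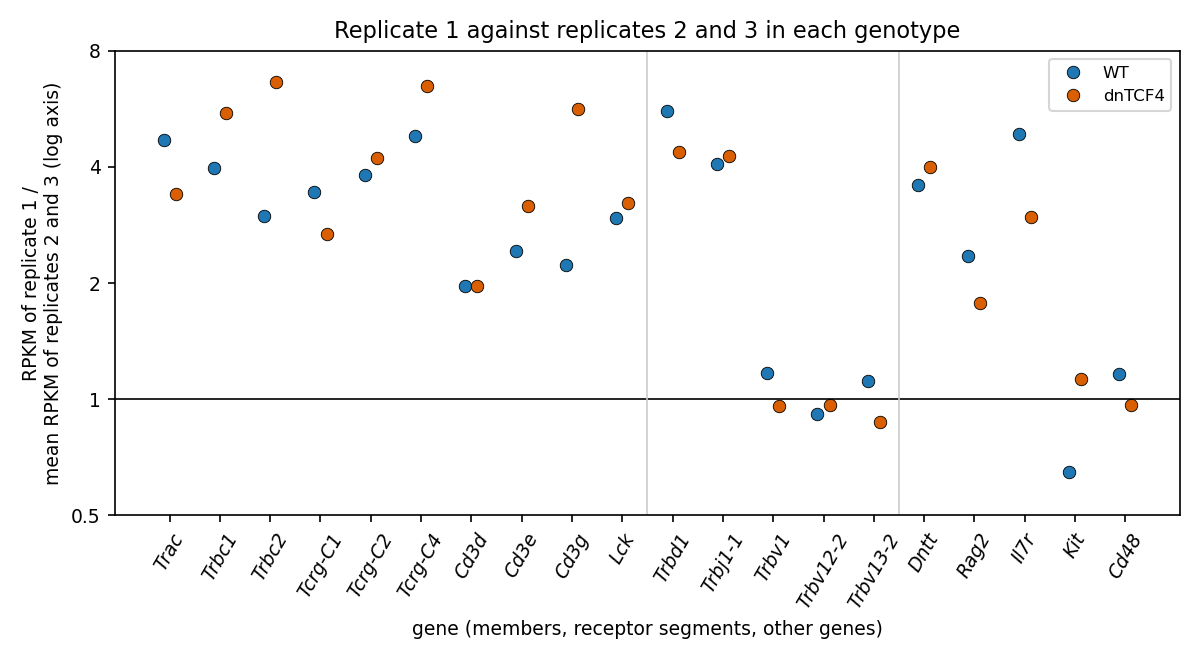
RPKM of replicate 1 divided by the mean RPKM of replicates 2 and 3 (log axis), WT in blue and dnTCF4 in orange, for the 10 genes, for 5 receptor segments and for 5 other genes. The 10 genes lie between 1.96 and 6.65, and the V segments Trbv1, Trbv12-2 and Trbv13-2 and the sort markers Kit and Cd48 lie around the line at 1.

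The D, J and V segments of the receptor loci, which the 10 genes do not include, were examined for the same step. The D and J segments are short, so they are compared by reads within 1 segment and not with the constants per length. The 3 first segments are shown because they begin the D and J cluster that lies before Trbc1 and carried most of the beta D and J reads. They are given 5′ to 3′ on the plus strand, and capitals in the J segments mark the 12 bases that match TTNGGNNNNGGN, the run that codes for the conserved phenylalanine and glycines of a J segment. Trbd1 lies at chr6:41533201-41533212, Trbj1-1 at chr6:41533864-41533911 and Trbj1-2 at chr6:41534001-41534048.
Trbd1: gggacagggggc
Trbj1-1: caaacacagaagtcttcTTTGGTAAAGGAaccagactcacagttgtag
Trbj1-2: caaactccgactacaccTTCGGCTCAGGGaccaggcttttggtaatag
Trbj1-1 had 271, 83 and 51 reads in WT and 163, 84 and 26 reads in dnTCF4. Trbd1 had 41, 7 and 8 reads in WT and 22, 10 and 4 reads in dnTCF4. Both were highest in replicate 1, as the constant gene behind them was.

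Trbd1 with the Trbj1 segments, 8 in all, held 416, 138 and 96 reads in WT and 274, 131 and 34 reads in dnTCF4. Trbd2 with the Trbj2 segments, also 8, held 40, 8 and 15 reads in WT and 68, 36 and 8 reads in dnTCF4. The first cluster thus exceeded the second in every library, while the ratio of Trbc1 to Trbc2 lay between 0.884 and 2.37. Of the 9 D and J segments averaging 1 RPKM or more over replicates 2 and 3, 9 were highest in RPKM in replicate 1. Of these, 5 were so by more than 2 times, Trbd1, Trbj1-1, Trbj1-2, Trbj2-1 and Trgj4. Some of the 9 rested on few reads. In dnTCF4, Trbj1-3 had 4, 4 and 0 reads and Trbj1-7 had 5, 3 and 0. Over all 74 D and J segments, most of them with few reads or none, 8 showed the step of more than 2 times. The 53 J segments of the alpha and delta locus held 12, 3 and 7 reads in WT and 12, 11 and 1 reads in dnTCF4.

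**Figure D4:**
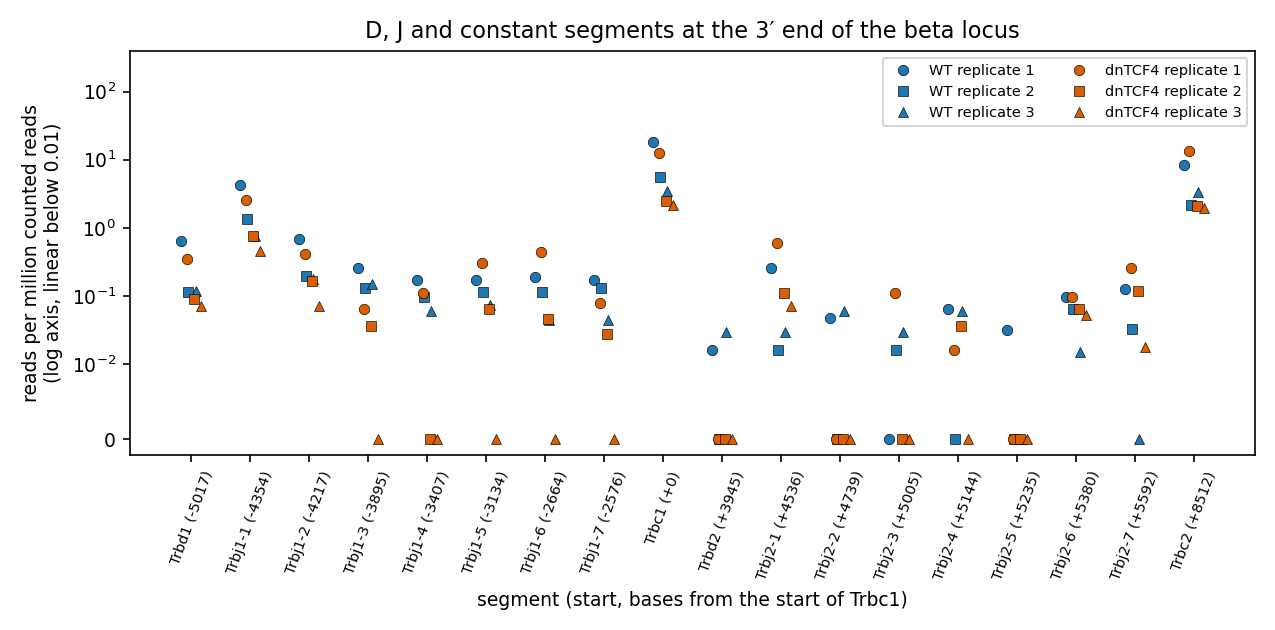
Reads scaled to library depth (log axis, linear below 0.01) of the D, J and constant segments at the end of the beta locus, ordered by position, with the start of each in bases from the start of Trbc1. Trbj1-1 stands above the other J segments, with 271 reads in WT replicate 1, and circles (replicate 1) lead in both colours there and at Trbd1.

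The V segments lie farther from the constants and are the part that joining brings to the J segments. Of 144 V segments, 73 were listed at 0 in all 6 libraries, and 6 passed the filter. Replicate 1 was more than 2 times higher in both genotypes for 0 of those 6 and for 8 of all 144. The V segments together held 1211, 1024 and 1203 reads in WT and 1583, 2511 and 1495 reads in dnTCF4. Trbv13-2, a beta V segment (chr6:41121396-41121832, plus strand), was read at 18.4, 15.3 and 17.7 RPKM in the WT libraries and at 23.9, 28.0 and 26.9 RPKM in dnTCF4, with no overlap between genotypes. It was not called in limma (adjusted p = 0.32). Trbv12-2, Trbv1 and B230359F08Rik also had no overlap and were higher in dnTCF4, against 15.4% of all tested genes higher without overlap, and 0 of the 4 were called.

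The genotypes were compared with limma on log2(RPKM + 1) over the 11326 genes that averaged 1 RPKM or more across the 6 libraries, which kept the 6 constants and Lck and left out the 3 CD3 genes. Of the 7 tested, 0 were called at an adjusted p under 0.05, where 0.3% of all genes tested were called, and 0 had an unadjusted p under 0.05, where 9.62% of all genes did. Their median log2 fold change (dnTCF4 minus WT) was -0.32, beside 0.14 over all genes tested. Groups did not overlap for 0 of the 10, against 17.7% of genes tested and 14.2% of genes at 0.1 to 1 RPKM.

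The largest difference in size was that of Tcrg-C2, with a log2 fold change of -0.98 (SE 0.44, limma adjusted p = 0.55, 95% interval -2.01 to 0.06). It was -1.79 with a pseudocount of 0.1 and -2.17 with voom on recovered reads, since a pseudocount of 1 shrinks the fold change of low genes. Tcrg-C4 differed by -0.71 (SE 0.68, limma adjusted p = 0.73) and Trbc1 by -0.67 (SE 0.73, limma adjusted p = 0.74). With 1 library left out these ranged from -1.35 (without dnTCF4 replicate 1) to -0.079 (without WT replicate 1) for Tcrg-C4, and from -1.38 to -0.052 for Trbc1 under the same omissions. Lck differed by -0.32 (SE 0.57, limma adjusted p = 0.82), with a 95% interval of -1.67 to 1.02. Tcrg-C1 (-0.11, adjusted p = 0.94), Trbc2 (-0.03, adjusted p = 0.99) and Trac (0.07, adjusted p = 0.94) lay closest to 0 in the limma fit, and median ratio scaling turned Trac to -0.038. In a limma fit with no filter, Cd3d gave 0.09 (SE 0.20), Cd3e -0.20 (SE 0.11) and Cd3g -0.07 (SE 0.24), and their adjusted p-values were 0.88, 0.73 and 0.93. Of all 30670 genes in that fit, 0.0196% were called. On this scale the fold changes of such low genes are understated: with a pseudocount of 0.1 Cd3e gave -0.81, and with voom -1.38, neither called. Exact two-sided permutation tests of single genes gave p-values from 0.2 (Tcrg-C2) to 1 (Trac and Trbc2), and 3 libraries against 3 cannot go below 0.1. The spread within a genotype was set mainly by replicate 1, which lay far above replicates 2 and 3.

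Same-numbered libraries were then compared, although the labels do not state that they are pairs. Of the 10, 5 genes were lower in dnTCF4 in all 3 pairs, Trbc1, Tcrg-C2, Tcrg-C4 and Lck among the 7 tested (4.78% of all genes tested) and Cd3e among the CD3 genes (7.27% of genes at 0.1 to 1 RPKM). Tcrg-C2 stood at 0.282, 0.105 and 0.475 of its WT partner, Tcrg-C4 at 0.595, 0.410 and 0.477, and Trbc1 at 0.705, 0.444 and 0.610. Cd3e stood at 0.480, 0.309 and 0.429, and Lck at 0.841, 0.763 and 0.769. Of the 10, 0 were higher in all 3 pairs, while 37.3% of all genes tested were. In the limma fit with the replicate number as a block, 0 of the 7 were called (0.433% of all genes tested were). Adjusted p-values there were 0.12 for Tcrg-C4, 0.14 for Tcrg-C2, 0.21 for Trbc1 and 0.43 for Lck. Before adjustment, 3 of the 7, Trbc1, Tcrg-C2 and Tcrg-C4, were lower with a p under 0.05, as 2.79% of all genes tested were. Among the CD3 genes Cd3e alone had an unadjusted p under 0.05 with the block and no filter. In that limma fit 9.68% of all genes had such a p, counted in either direction, and 0% were called.

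**Figure D5:**
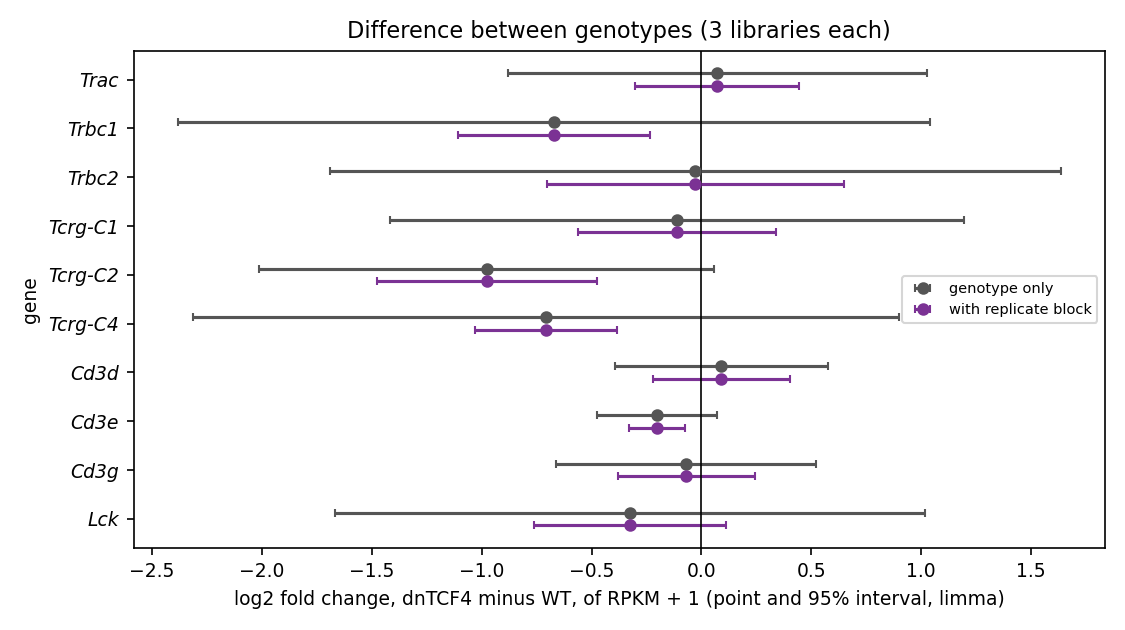
Log2 fold change of RPKM + 1 (dnTCF4 minus WT, 3 libraries each) with 95% intervals from limma, genotype alone in grey and with a replicate block in purple; the CD3 genes come from the fit with no filter. All 10 grey intervals cross 0, and the purple ones of Trbc1, Tcrg-C2, Tcrg-C4 and Cd3e, which are not adjusted over genes, do not.

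The receptor constants were also summed by chain within each pair. The alpha and beta constants together stood at 0.996, 0.636 and 0.605 of their WT partner in pairs 1, 2 and 3, and the gamma constants at 0.655, 0.686 and 0.885. CD3 stood at 1.05, 0.712 and 0.872, and the ratio of constants to CD3 plus Lck at 0.972, 0.871 and 0.947. All 3 pairs thus had a slightly lower ratio in dnTCF4, by less than the spread between replicates of a genotype. That spread holds the higher ratio of replicate 1, seen in both genotypes, so it does not measure the spread between pairs. The paired difference in this ratio was not tested. The immunoglobulin genes, which take a part of every RPKM total, were the main difference between genotypes: Igkc, the kappa light chain constant, was read at 38609 to 74124 RPKM in WT and 3645 to 8466 RPKM in dnTCF4, a log2 difference of -2.96 (limma adjusted p = 0.042). With immunoglobulin genes left out of the totals and of the genes tested, they could not be called themselves. Limma then called 0 of the 11287 genes tested (666 at an unadjusted p under 0.05), and the median of all genes moved from 0.14 to 0.04. With the replicate block as well, a setting added after seeing the data, 51 genes were called, none of them among the 10.

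Other genes of T cells and of neighbouring cell types were compared between genotypes in the same limma fit. Of the 19 receptor signalling genes tested, 0 were called, with 12 higher and 7 lower in mean and a median log2 fold change of 0.25. Of 7 T cell surface genes 0 were called (median 0.40), and of 8 T lineage factors 0 were called (median 0.14). Tcf7, at a mean of 0.996 RPKM, fell below the filter and was not among these 8. In the limma fit with no filter it gave -0.73 (adjusted p = 0.69). Of 3 recombination genes 0 were called; Dntt differed by -0.95 and was lower in all 3 pairs. Of 11 NK cell genes 0 were called (median 0.42), and of 6 innate lymphoid genes 0 were called (median 0.10). Of 8 B cell genes 0 were called (median -0.44), among them Cd79a, the antigen receptor's signalling chain, at 68.7, 26.0 and 26.5 RPKM in the WT libraries and at 20.3, 3.29 and 8.41 RPKM in the dnTCF4 libraries. Of 8 plasma cell genes 0 were called (median -0.99), and Mzb1, a chaperone of antibody-secreting cells, was called with the block. Of all 9 plasma cell genes, 0 were more than 2 times higher in replicate 1 of both genotypes.

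The tested genes with profiles nearest to the members were found by the root mean square difference of centred log2(RPKM + 1) values over the 6 libraries. Nearest to the summed constants were Cxcr6, a chemokine receptor (0.218), the segment Trbd1 (0.225) and Gimap4, a GTPase of lymphocytes (0.245), where the median over all genes was 1.05. Cxcr6 was read at 10.3, 1.57 and 1.36 RPKM in the WT libraries and at 6.39, 0.462 and 1.00 RPKM in dnTCF4. Nearest to summed CD3 and Lck were Mn1 (0.0999), Wfdc18 (0.176) and Ccr9, a chemokine receptor (0.196), where the median was 0.861. Ccr9 was read at 2.86, 0.271 and 0.289 RPKM in the WT libraries and at 2.37, 0.406 and 0.319 RPKM in dnTCF4.

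Promoter windows (250 bases before and 50 after the start, RefSeq, GRCm38.p6) were given for Lck, which has a distal and a proximal start, and for Cd3d, Cd3e and Cd3g. The E-box CAGGTG, on either strand, was found in all 5 windows and in 20.2% of all 32851 windows. The TCF motif CTTTGAA or CTTTGAT was found in the Cd3d window alone of these 5 and in 8.65% of all windows. The ETS motif ACAGGAAG was found at the distal Lck start and in the Cd3e window, and in 3.58% of all windows. None of these matches overlapped another. The E-box matches that lie closest before a start are shown for 3 genes, with the 6 matching bases in capitals, 5′ to 3′ on the gene's strand: Lck (proximal start) at chr4:129558413-129558452 (minus strand), Cd3g at chr9:44980444-44980483 (minus strand) and Cd3d at chr9:44981657-44981696 (plus strand).
Lck: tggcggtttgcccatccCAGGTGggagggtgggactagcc
Cd3g: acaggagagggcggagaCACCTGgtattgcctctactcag
Cd3d: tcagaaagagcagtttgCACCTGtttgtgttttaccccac
The first matching base lies 63 bases before the start in Lck, 35 in Cd3g and 112 in Cd3d. A match of letters is a description and shows no binding.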

How the data were processed

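The authors deposited 1 table of RPKM values for the 6 libraries, each value a read count scaled by gene length and library total. The tools STAR, featureCounts, edgeR and DESeq2 and the build names GRCm38 and mm10 appear in the submitters' processing notes, and the sources used here give no versions, roles or annotation. Per the labels' protocols, libraries were made from 20 ng RNA with SMART-Seq v4 and Nextera XT. Whole reads were recovered with GENCODE M21 exon lengths for 49627 matched symbols, and 92.9% to 93.3% of values came out whole within 0.02 of a read.

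The values were tested with limma 3.58.1 (R 4.3.3, trended empirical Bayes, Benjamini-Hochberg adjustment) on log2(RPKM + 1) for genes averaging 1 RPKM or more. Filters, pseudocounts, scalings, voom on recovered reads and left-out libraries were alternatives. Level classes from replicates 2 and 3, used for counts of genes higher in replicate 1, were chosen after seeing the data. P-values measure the spread between these libraries. Same-numbered libraries deviated together from their group means (correlations 0.17, 0.35 and 0.30), so the numbers were taken to pair them. The labels do not state pairs. The correlations came from the same values that the pairs then compared, so they do not establish the pairing. Members and gene lists were chosen with earlier results of these data known. Genes named beside the 10 were those of smallest p in each list, the nearest profiles and the main immunoglobulin constants; other genes were named after their values were seen.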

Additional observations from a re-analysis of the deposited data

How the results depend on the processing

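None of the 10 genes was called under any setting tried. The count of all genes called by limma was 34. It was 6 with no filter on low values. With immunoglobulin genes left out of the totals and of the tests it was 0 (limma, 666 genes at an unadjusted p under 0.05). It was 86 with library weights, 14 with voom on recovered reads and 7 to 34 with 1 library left out. With the replicate block it was 49, and with replicates 2 and 3 only it was 10. Combinations of the block with other settings were added after seeing the data. Among these the count was 51 with immunoglobulin genes left out and 127 with median ratio scaling. The genotype difference in the log2 ratio of constants to CD3 and Lck (-0.11) ranged from -0.26 to 0.014 with 1 library left out. This difference was -0.23 against CD3 without Lck and -0.11 as the mean of the 3 paired differences (replicate block). 

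Several differences changed sign, and the cause was not tested. Trac (0.07) gave -0.038 with median ratio scaling, with or without the block, and -0.035 with quantile scaling. Cd3d (0.09) gave -0.0035 with median ratio scaling, with or without the block, and -0.0017 with quantile scaling. Library weights with the filter gave 0.12 for Trbc1, 0.87 for Trbc2, 0.46 for Tcrg-C1, 0.075 for Tcrg-C4 and 0.34 for Lck. With no filter, library weights gave 0.058 for Cd3g, 0.43 for Trbc2 and 0.16 for Tcrg-C1. In that fit Trbc1 (-0.31), Tcrg-C4 (-0.33) and Lck (-3.4e-05) did not change sign. Replicates 2 and 3 only gave 0.013 for Tcrg-C1, and the block with voom gave 0.029 for Trbc2. With 1 library left out, and no filter so that all 6 such fits hold each gene, the range was -0.25 to 0.46 for Trac (0.23 at most in the 4 fits whose filter it passed), -1.38 to -0.052 for Trbc1, -1.29 to -0.51 for Tcrg-C2, -1.35 to -0.079 for Tcrg-C4, -0.82 to 0.44 for Trbc2, -0.54 to 0.45 for Tcrg-C1, -0.049 to 0.22 for Cd3d, -0.31 to 0.058 for Cd3g and -0.87 to 0.18 for Lck. Without WT replicate 1 the values were 0.46 for Trac, 0.44 for Trbc2, 0.45 for Tcrg-C1 and 0.18 for Lck. Depth limits the CD3 genes, which rest on 20 to 190 reads a library.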
